A study of Homo sapiens with 8 samples.

Results

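Mitosis and G2/M genes were followed as a set of 40 named genes whose products carry a cell from G2 into mitosis and through division. Each gene was read from probe sets that the array annotation gives to that gene alone, and from the brightest of them where there were several. All 40 were measured, out of 19775 genes that had a probe set of their own. RNA was measured on 8 Affymetrix U133 Plus 2.0 arrays, 2 in each of 4 groups. The first group was trMCF clone 11, cells grown from a colony picked by ring cloning out of MCF-10F cells that estradiol had transformed, so that it stands for 1 clone. A further pair of groups was the same clone after 26 days in all-trans retinoic acid (ATRA) at 1 μM or at 10 μM. The last was MCF-10F, a human breast epithelial line that forms tubules in collagen and lacks estrogen receptor, progesterone receptor and HER2. The medium given for MCF-10F held horse serum, epidermal growth factor, insulin, hydrocortisone and cholera toxin. Whether the untreated clone cells had received the dimethylsulphoxide used to dissolve ATRA is not stated, nor is it stated that replicates were grown separately, so the p-values measure only the spread between these arrays. A label of trMCF clone 11 replicate 1 reads normal, but its title names the clone, and the title was used.

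CDK1, held active by the B cyclins, is the kinase that starts mitosis. CDC25 phosphatases switch it on, and the Aurora, Polo-like and NEK kinases then mature and part the centrosomes, build the spindle and correct its attachments. BUB1, BUB1B and TTK delay anaphase until the kinetochores, among them those held by CENPE and the NDC80 complex, are attached. CDC20 and UBE2C then drive the anaphase-promoting complex, which marks securin (PTTG1) and the cyclins for destruction, and kinesins, PRC1, ANLN and ECT2 complete the division. The mRNA of most of these genes is low in resting and G1 cells and high in G2 and mitosis, so that in bulk RNA their level is known to follow the share of dividing cells. Fewer cells in that phase and less RNA in each of them cannot be told apart in such samples.

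The genes share sequence at their starts that their selection did not use. Known regulators of the set act through 2 short elements, the cell cycle genes homology region (CHR), where the DREAM and MYBL2-MuvB complexes bind, and the CCAAT box, bound by NF-Y. Both were searched on either strand as the letters TTTGAA and CCAAT, which can share no more than an end letter, in RefSeq windows (GRCh38.p14) of 250 bases before and 50 bases from each gene's start. Of the 40 genes, 34 had such a window, and AURKA, BIRC5, FOXM1, TPX2, TTK and UBE2C were not matched. TTTGAA was present in 23 of the 34 (67.6%), against 15.4% of all 27305 windows. CCAAT was present in 25 of 34 (73.5%), against 35.7% of all windows, and both were present in 18 of 34 (52.9%), against 6.08%. A match describes letters only and is not a bound site. The 250 bases before the start are shown for leading genes of the set and for NEK2, which was added after its values were seen because the comparisons below turn on it, with every TTTGAA or CCAAT match, on either strand, in capitals. They lie at chr5:69166900-69167149 (CCNB1, plus strand), chr15:59104896-59105145 (CCNB2, plus strand), chr10:60778081-60778330 (CDK1, plus strand), chr1:43358731-43358980 (CDC20, plus strand), chr16:23678639-23678888 (PLK1, plus strand) and chr1:211675622-211675871 (NEK2, minus strand).
CCNB1: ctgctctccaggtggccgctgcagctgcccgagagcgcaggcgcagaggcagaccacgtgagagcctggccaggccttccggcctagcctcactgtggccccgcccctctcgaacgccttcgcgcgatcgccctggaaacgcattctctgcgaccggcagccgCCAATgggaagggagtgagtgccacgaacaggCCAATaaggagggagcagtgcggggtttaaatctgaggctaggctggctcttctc
CCNB2: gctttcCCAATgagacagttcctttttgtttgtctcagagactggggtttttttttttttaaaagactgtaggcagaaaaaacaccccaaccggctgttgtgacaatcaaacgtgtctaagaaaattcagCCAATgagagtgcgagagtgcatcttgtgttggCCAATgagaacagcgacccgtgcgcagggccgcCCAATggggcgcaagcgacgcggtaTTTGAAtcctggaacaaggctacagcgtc
CDK1: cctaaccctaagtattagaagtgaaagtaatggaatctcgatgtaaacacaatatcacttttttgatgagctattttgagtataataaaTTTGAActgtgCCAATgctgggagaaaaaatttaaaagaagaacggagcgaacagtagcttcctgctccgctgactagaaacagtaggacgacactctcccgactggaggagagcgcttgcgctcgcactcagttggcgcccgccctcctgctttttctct
CDC20: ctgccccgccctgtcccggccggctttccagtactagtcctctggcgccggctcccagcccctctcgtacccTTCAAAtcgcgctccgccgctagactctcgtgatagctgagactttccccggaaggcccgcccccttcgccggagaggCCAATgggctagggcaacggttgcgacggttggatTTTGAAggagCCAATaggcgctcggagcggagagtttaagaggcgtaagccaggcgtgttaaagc
PLK1: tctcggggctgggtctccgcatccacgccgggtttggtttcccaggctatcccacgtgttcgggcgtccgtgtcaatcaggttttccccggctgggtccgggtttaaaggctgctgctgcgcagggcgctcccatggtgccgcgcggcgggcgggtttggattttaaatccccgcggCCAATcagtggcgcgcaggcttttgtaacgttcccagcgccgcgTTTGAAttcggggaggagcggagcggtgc
NEK2: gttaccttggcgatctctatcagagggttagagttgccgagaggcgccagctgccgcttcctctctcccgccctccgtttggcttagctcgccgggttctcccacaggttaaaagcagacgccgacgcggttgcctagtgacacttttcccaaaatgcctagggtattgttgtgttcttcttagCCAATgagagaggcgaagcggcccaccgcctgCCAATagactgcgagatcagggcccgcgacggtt
CCNB2 held 4 CCAAT matches and 1 TTTGAA match, CDC20 held 2 of each, and CDK1 and PLK1 held 1 of each. CCNB1 and NEK2 held 2 CCAAT matches each and no TTTGAA in this window.

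All arrays had like overall signal, with medians of 47.3 to 48.8 over all probe sets, and the arrays of the clone and of MCF-10F differed from each other in the mitosis genes. On trMCF clone 11 replicate 2, 35 of the 40 genes were higher than on replicate 1, with a median difference of -0.54 on the log2 scale (replicate 1 minus replicate 2), and 10 were over 2-fold apart (25% of the set, against 7.33% of all genes). In MCF-10F, 39 of 40 were higher on replicate 1, with a median difference of 0.61, and 8 were over 2-fold apart (20%, against 3.84% of all genes). Of all genes, 40.9% were higher on replicate 2 in the clone and 52.3% on replicate 1 in MCF-10F. The ATRA arrays were close, with median absolute differences of 0.071 at 1 μM and 0.085 at 10 μM and none over 2-fold apart. The median log2 signal of the 40 genes was 10.43 and 11.09 on the clone arrays, 10.73 and 10.68 at 1 μM, 10.75 and 10.82 at 10 μM, and 10.78 and 9.93 in MCF-10F. MCF-10F replicate 2 held the lowest value of 25 genes and trMCF clone 11 replicate 2 the highest value of 20. In the median the replicates of each untreated group lay farther apart than the 2 group means did (0.27, below), and values are therefore given for each array. The ratio of 3′ to 5′ signal of the GAPDH control was 1.29 to 1.79 over the arrays. That of the ACTB control was higher on replicate 2 than on replicate 1 in every group, at 5.69 and 7.91 in the clone and 5.57 and 7.75 in MCF-10F, where the mitosis genes differed in opposite directions between the replicates. The part of RNA quality in these differences was not tested.

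**Figure D1:**
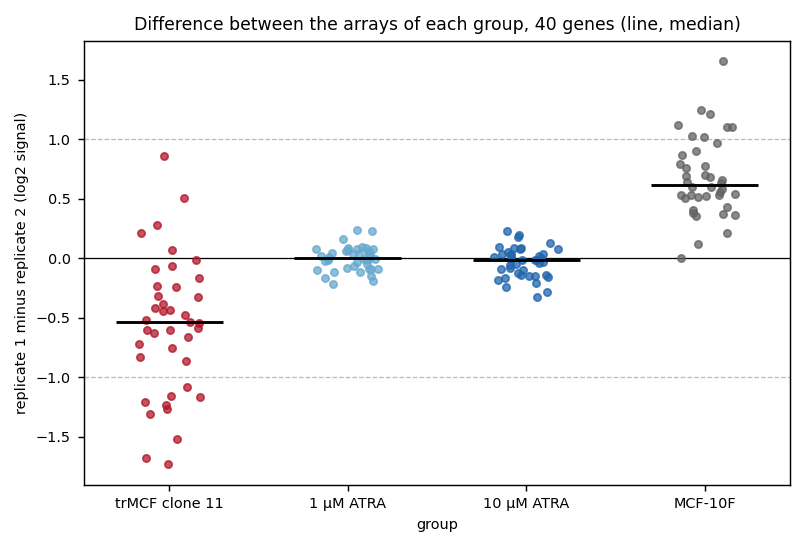
Log2 signal of replicate 1 minus replicate 2 (y axis) for each of the 40 genes (points) in trMCF clone 11, 1 μM ATRA, 10 μM ATRA and MCF-10F, with the median as a line and dashed lines at a 2-fold difference. The medians are -0.54 in the clone and 0.61 in MCF-10F, while no gene of the ATRA groups is over 2-fold apart.

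**Figure D2:**
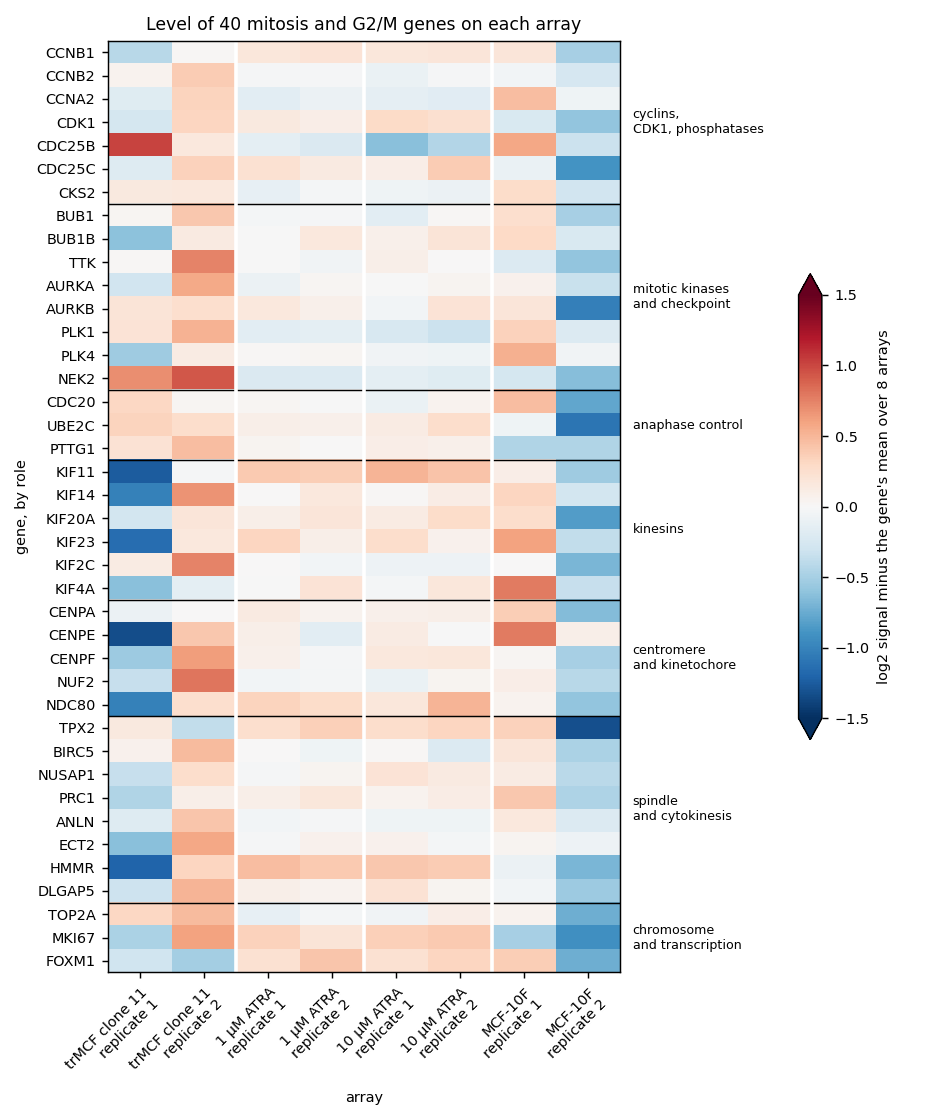
Log2 signal of each gene (rows, by role) on each array (columns) minus the mean of that gene over the 8 arrays. MCF-10F replicate 2 is the lowest array for 25 genes, trMCF clone 11 replicate 2 is the highest for 20, and NEK2 is high on both clone arrays.

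The epithelial markers EPCAM, CDH1, KRT8 and KRT18 were present throughout, with EPCAM signals of 4805 to 7964, while KRT19 read 26.5 to 72.1. The summed signal of 6 basal markers was 24471 and 23809 in the clone, 12651 and 11458 at 1 μM, 10054 and 8993 at 10 μM, and 34000 and 14936 in MCF-10F. Among them KRT14, a basal keratin, read 34 to 212 on the ATRA arrays, against 3230.3 and 4549 in the untreated clone and 9149.5 and 1329.7 in MCF-10F. The summed signal of 9 fibroblast markers was 854.4 and 1055 in the clone, 560.1 and 506.5 at 1 μM, 494 and 466.4 at 10 μM, and 3397 and 2343 in MCF-10F. FAP and COL1A1 made up most of it in MCF-10F, with FAP at 320.8 and 318.4 in the clone, 193.3 and 143.8 at 1 μM, 99.4 and 80.4 at 10 μM, and 1562 and 1255 in MCF-10F. COL1A1 read 252.3 and 495.1 in the clone, 112.5 and 110.0 at 1 μM, 82.9 and 81.0 at 10 μM, and 1338 and 560.1 in MCF-10F, while COL3A1, PDGFRA and LUM read 6.7 to 25.4 on every array. The sum of 4 immune markers was 269.3 and 192.2 in the clone, 619.9 and 527.4 at 1 μM, 701.4 and 776.9 at 10 μM, and 137.7 and 492.1 in MCF-10F, mostly CD14, with PTPRC, which all leukocytes carry, at 9.9 to 14.4. The sum of 4 endothelial markers was 221.8 and 338.6 in the clone, 660.5 and 841.5 at 1 μM, 898.7 and 1263.3 at 10 μM, and 172.9 and 1142.4 in MCF-10F, mostly PECAM1, with CDH5 at 12.8 to 22.8. The sum of 4 adipocyte markers was 102.2 to 154.9. The part of these markers in the mitosis genes' values was not tested.

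Against MCF-10F, trMCF clone 11 differed in 1 of the 40 genes, NEK2, which rose. Of the set, 2.5% rose and none fell at an adjusted p under 0.05 in the limma fit over all probe sets, against 1.88% of all genes that rose and 2.64% that fell, so that the share was near the background in both directions. The log2 difference was positive for 27 genes and negative for 13, and it was positive for 58.0% of all genes. Its median was 0.27 over the set, against 0.062 over all genes. The median of the set was 0.55 without MCF-10F replicate 1 and -0.05 without MCF-10F replicate 2. Without adjustment 6 genes (15%) had a p under 0.05, against 22.9% of all genes, and these were NEK2, PTTG1, TTK, TOP2A, UBE2C and KIF2C, all with positive differences. Both clone arrays lay above both MCF-10F arrays for 9 genes (22.5%, against 27.5% of all genes) and below them for none (20.8% of all genes). By a 2-fold difference with an unadjusted p under 0.05, NEK2 was higher and no gene lower, against 3.24% and 5.96% of all genes. The 95% interval lay within 2-fold either way for 10 of the 40 genes, against 67.6% of all genes, and for the other 30 it reached past 2-fold.

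With ATRA, no mitosis gene passed the adjusted p at 1 μM and 1 did at 10 μM, again NEK2, which fell. The background at 1 μM was 1.9% of all genes called in either direction, and 1 of the 40 genes had an unadjusted p under 0.05, against 21.6% of all genes. This was NEK2, which was also past 2-fold there (lower by both rules, against 3.02% of all genes, with 4.87% higher). KIF11 was past 2-fold too, 1.02 higher, but without an unadjusted p under 0.05. At 10 μM, 2.5% of the set fell and none rose, against 3.89% and 3.94% of all genes, and NEK2, CDC25B, PLK1 and KIF11 (10%) had an unadjusted p under 0.05, against 24% of all genes. With 2-fold added to the unadjusted p, KIF11 was higher and CDC25B lower at 10 μM, against 4.66% and 3.67% of all genes. The arrays did not overlap with those of the clone for 8 genes that were higher and 14 that were lower at 1 μM (20% and 35%, against 24.1% and 30.3% of all genes), and for 7 higher and 11 lower at 10 μM (17.5% and 27.5%, against 24.6% and 24.1%). The differences from the untreated clone were positive for 20 genes and negative for 20 at 1 μM, with a median of 0.017 (all genes, -0.065). At 10 μM they were positive for 22 and negative for 18, with a median of 0.079 (all genes, -0.014). Of all genes, 41.7% had positive differences at 1 μM and 47.9% at 10 μM. Both doses share the untreated clone arrays, and so do these comparisons and the one with MCF-10F. The interval lay within 2-fold for 16 genes at 1 μM and 22 at 10 μM, against 69.2% and 72.6% of all genes.

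**Figure D3:**
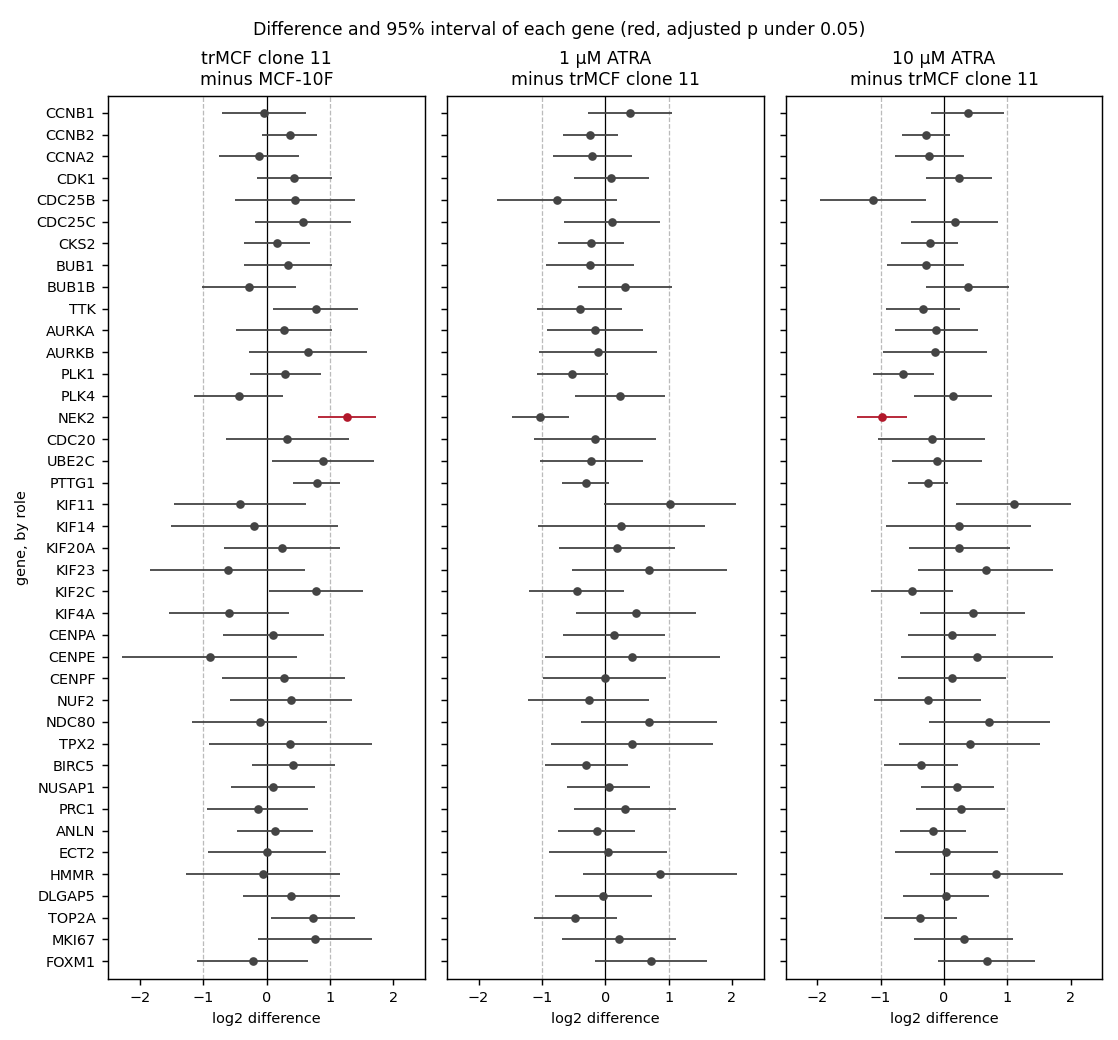
Log2 difference (x axis) and 95% interval of each gene (rows, by role) for trMCF clone 11 minus MCF-10F, 1 μM ATRA minus trMCF clone 11 and 10 μM ATRA minus trMCF clone 11, with dashed lines at 2-fold and red for an adjusted p under 0.05. NEK2 is red at 1.27 in the clone and at -0.98 with 10 μM ATRA, and the other 39 genes are not.

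NEK2 encodes a kinase that parts the centrosomes at mitotic entry. Its log2 signal was 11.45 and 11.69 on the clone arrays, 10.54 and 10.55 at 1 μM, 10.61 and 10.57 at 10 μM, and 10.49 and 10.12 in MCF-10F. Both clone arrays lay above the 6 others, and the ATRA arrays lay just above MCF-10F. NEK2 rose by 1.27 on the log2 scale in the clone (SE 0.19, adjusted p = 0.0322), which was 2.41-fold. With 1 μM ATRA the difference from the clone was -1.02 (SE 0.19, adjusted p = 0.0614), and with 10 μM NEK2 fell by 0.98 (SE 0.17, adjusted p = 0.0222). The 10 μM fit held all 8 arrays, and in that fit the 1 μM difference had an SE of 0.17 and an adjusted p of 0.0206. Each fit shares 1 estimate of spread over its groups, and the ATRA arrays of NEK2 lay closer together than the others. On only the 4 arrays compared, the clone difference had an SE of 0.22 (adjusted p = 0.138). In such fits the SE was 0.16 at 1 μM (adjusted p = 0.0637) and 0.17 at 10 μM (adjusted p = 0.0729), so none was called. Against MCF-10F the ATRA arrays differed by 0.24 at 1 μM (adjusted p = 0.81) and 0.29 at 10 μM (adjusted p = 0.537). A second, dimmer NEK2 probe set had log2 signals of 8.67 and 8.86 in the clone, 7.75 and 7.64 at 1 μM, 7.43 and 7.57 at 10 μM, and 7.43 and 6.76 in MCF-10F. It too rose in the clone, by 1.67 (adjusted p = 0.0323), and fell at 10 μM by 1.26 (adjusted p = 0.025). The call in the clone was lost without MCF-10F replicate 1 (adjusted p = 0.0814) or replicate 2 (adjusted p = 0.0694) and without either 1 μM array (adjusted p = 0.138), and the call at 10 μM was lost without 10 μM replicate 1 (adjusted p = 0.164), 10 μM replicate 2 (adjusted p = 0.156) or either 1 μM array (adjusted p = 0.0681).

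The other mitotic kinases and checkpoint genes were not called. Of the 8 genes with this role, NEK2 included, 6 had positive differences in the clone, and 6 had negative differences at each ATRA dose. AURKA, the kinase that matures centrosomes, had log2 signals of 10.83 and 11.69 in the clone, 11.03 and 11.15 at 1 μM, 11.12 and 11.16 at 10 μM, and 11.19 and 10.78 in MCF-10F. The clone arrays lay on either side of the ATRA arrays. AURKB, which corrects kinetochore attachments, had 8.36 and 8.42 in the clone, 8.32 and 8.24 at 1 μM, 8.12 and 8.37 at 10 μM, and 8.35 and 7.13 in MCF-10F. Only MCF-10F replicate 2 stood apart, and the clone differed from MCF-10F by 0.65 (95% interval -0.28 to 1.58). PLK1, a kinase needed at several steps of mitosis, had 6.79 and 7.11 in the clone, 6.43 and 6.44 at 1 μM, 6.35 and 6.27 at 10 μM, and 6.93 and 6.39 in MCF-10F. Its probe set was dim, at 77.1 to 138 before the log. All 4 ATRA arrays lay below both clone arrays, with differences of -0.52 at 1 μM (adjusted p = 0.298) and -0.64 at 10 μM (adjusted p = 0.127). BUB1, which recruits checkpoint proteins to kinetochores, had 10.14 and 10.52 in the clone, 10.09 and 10.09 at 1 μM, 9.96 and 10.13 at 10 μM, and 10.37 and 9.61 in MCF-10F. All 4 ATRA arrays of BUB1 lay below both clone arrays, with differences of -0.24 at 1 μM (adjusted p = 0.702) and -0.29 at 10 μM (adjusted p = 0.639). MCF-10F replicate 2 was the lowest. BUB1B, TTK and PLK4, the last of which duplicates centrioles, had differences of -0.44 to 0.78 in the clone and -0.40 to 0.37 with ATRA.

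Among the cyclins, CDK1 and their phosphatases, 7 genes, no gene was called in any comparison. CCNB1, cyclin B1, had log2 signals of 11.58 and 12.01 in the clone, 12.17 and 12.21 at 1 μM, 12.16 and 12.18 at 10 μM, and 12.18 and 11.50 in MCF-10F. The ATRA arrays lay above both clone arrays and level with MCF-10F replicate 1. The clone differed from MCF-10F by -0.04 (95% interval -0.71 to 0.62) and 1 μM ATRA from the clone by 0.39 (interval -0.27 to 1.06). CDK1 had 12.04 and 12.63 in the clone, 12.45 and 12.41 at 1 μM, 12.60 and 12.55 at 10 μM, and 12.08 and 11.72 in MCF-10F. The clone arrays lay far apart and overlapped with MCF-10F and with both ATRA doses. CDC25B, which activates CDK1 at mitotic entry, had 11.62 and 10.76 in the clone, 10.46 and 10.39 at 1 μM, 9.98 and 10.16 at 10 μM, and 11.19 and 10.29 in MCF-10F. It was lower on all ATRA arrays than on either clone array, with differences of -0.76 at 1 μM (adjusted p = 0.361) and -1.12 at 10 μM (SE 0.35, adjusted p = 0.121). CCNB2, CCNA2, CDC25C and the CDK1 subunit CKS2 had differences of -0.12 to 0.57 in the clone and -0.28 to 0.17 with ATRA.

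The 3 genes of anaphase control had positive differences in the clone, with a median of 0.79, and negative ones with ATRA, and none was called. PTTG1, securin, which holds separase inactive, had log2 signals of 12.78 and 13.02 in the clone, 12.61 and 12.57 at 1 μM, 12.66 and 12.64 at 10 μM, and 12.12 and 12.12 in MCF-10F. The ATRA arrays lay between MCF-10F and the clone with no overlap. The clone differed from MCF-10F by 0.79 (SE 0.15, adjusted p = 0.0537), and ATRA from the clone by -0.31 at 1 μM (adjusted p = 0.348) and -0.25 at 10 μM (adjusted p = 0.376). The probe set has the suffix _x_at, given to probe sets that can bind other transcripts, and so do those used for CENPA and FOXM1 below. UBE2C, the ubiquitin-conjugating enzyme of the anaphase-promoting complex, had 12.07 and 12.00 in the clone, 11.83 and 11.82 at 1 μM, 11.86 and 12.00 at 10 μM, and 11.67 and 10.64 in MCF-10F. The clone differed from MCF-10F by 0.89 (adjusted p = 0.212), and the MCF-10F arrays lay farther apart than that. CDC20, which activates the complex, had 11.42 and 11.14 in the clone, 11.13 and 11.09 at 1 μM, 11.00 and 11.16 at 10 μM, and 11.57 and 10.33 in MCF-10F, so its highest and lowest arrays were both MCF-10F.

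Of the 6 kinesins none was called, and they differed in which arrays were high. KIF11, which pushes the spindle poles apart, had log2 signals of 8.86 and 10.09 in the clone, 10.50 and 10.49 at 1 μM, 10.63 and 10.54 at 10 μM, and 10.22 and 9.58 in MCF-10F. All 4 ATRA arrays lay above the 4 others. The difference from the clone was 1.02 at 1 μM (SE 0.42, adjusted p = 0.278) and 1.10 at 10 μM (SE 0.39, adjusted p = 0.156). KIF14, which acts in cytokinesis, had 8.64 and 10.32 in the clone, 9.66 and 9.81 at 1 μM, 9.67 and 9.76 at 10 μM, and 9.97 and 9.38 in MCF-10F. The clone arrays were the lowest and the highest of the 8. KIF2C, which shortens microtubules at kinetochores, had 10.72 and 11.35 in the clone, 10.61 and 10.55 at 1 μM, 10.53 and 10.52 at 10 μM, and 10.60 and 9.91 in MCF-10F. Both clone arrays lay above the 6 others, with a difference from MCF-10F of 0.78 (adjusted p = 0.235). KIF20A, KIF23 and KIF4A, of the central spindle and chromosome arms, had differences of -0.61 to 0.24 in the clone and 0.18 to 0.70 with ATRA.

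Among the 5 centromere and kinetochore genes, CENPE had the widest range over the 8 arrays of the whole set. It encodes the kinesin that moves chromosomes to the spindle equator and had log2 signals of 8.05 and 9.78 in the clone, 9.46 and 9.22 at 1 μM, 9.49 and 9.37 at 10 μM, and 10.16 and 9.47 in MCF-10F. Clone replicate 1 lay far below the other arrays and replicate 2 among them, so the difference of -0.90 from MCF-10F had an interval of -2.28 to 0.48. NDC80, of the complex that grips microtubules, had 9.23 and 10.50 in the clone, 10.58 and 10.53 at 1 μM, 10.42 and 10.75 at 10 μM, and 10.29 and 9.66 in MCF-10F. The ATRA arrays lay beside clone replicate 2 and above replicate 1. CENPF, a large kinetochore protein, had 9.87 and 11.04 in the clone, 10.49 and 10.39 at 1 μM, 10.57 and 10.59 at 10 μM, and 10.45 and 9.92 in MCF-10F, with a difference of -0.01 between 1 μM and the clone (interval -0.99 to 0.96). CENPA, the histone variant that marks the centromere, had 8.77 and 8.86 in the clone, 8.99 and 8.91 at 1 μM, 8.93 and 8.95 at 10 μM, and 9.22 and 8.21 in MCF-10F. Its clone and ATRA arrays lay together, between the MCF-10F arrays. NUF2, a partner of NDC80, differed by 0.39 in the clone and by -0.27 and -0.26 with 1 and 10 μM ATRA.

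Of the 8 spindle and cytokinesis genes none was called. HMMR, which acts at spindle poles, had log2 signals of 10.42 and 11.94 in the clone, 12.08 and 12.00 at 1 μM, 12.01 and 11.99 at 10 μM, and 11.53 and 10.93 in MCF-10F. As with KIF11, all 4 ATRA arrays lay above the 4 others, and these were the only members of which that held (5% of the set, against 7.25% of all genes). The difference from the clone was 0.87 at 1 μM (SE 0.49, adjusted p = 0.418) and 0.83 at 10 μM (SE 0.45, adjusted p = 0.375). ECT2, which triggers furrowing, had 10.33 and 11.54 in the clone, 10.94 and 11.02 at 1 μM, 11.02 and 10.93 at 10 μM, and 10.99 and 10.88 in MCF-10F. The ATRA and MCF-10F arrays lay together between the clone arrays, and the group means differed by 0.00 between the clone and MCF-10F (interval -0.93 to 0.93). DLGAP5, which steadies spindle microtubules, had 10.81 and 11.64 in the clone, 11.21 and 11.17 at 1 μM, 11.34 and 11.17 at 10 μM, and 11.08 and 10.58 in MCF-10F, with the ATRA arrays between the clone arrays. BIRC5, survivin, a partner of AURKB, had 10.44 and 10.86 in the clone, 10.39 and 10.32 at 1 μM, 10.40 and 10.17 at 10 μM, and 10.56 and 9.90 in MCF-10F. Its ATRA arrays lay just below both clone arrays, with differences of -0.30 at 1 μM and -0.37 at 10 μM. TPX2, NUSAP1, PRC1 and ANLN had differences of -0.14 to 0.38 in the clone and -0.18 to 0.42 with ATRA.

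The last 3 genes act on chromosomes or transcription. TOP2A, the topoisomerase that untangles sister chromatids, had log2 signals of 12.21 and 12.37 in the clone, 11.77 and 11.86 at 1 μM, 11.84 and 11.99 at 10 μM, and 11.94 and 11.17 in MCF-10F. Both clone arrays lay above the 6 others, as they did for 6 members (15%, against 12.8% of all genes), and the clone differed from MCF-10F by 0.73 (SE 0.27, adjusted p = 0.208). MKI67, the proliferation marker Ki-67, had 10.13 and 11.21 in the clone, 10.96 and 10.80 at 1 μM, 10.96 and 11.00 at 10 μM, and 10.12 and 9.69 in MCF-10F. Clone replicate 1 was level with MCF-10F replicate 1, and clone replicate 2 was the highest array. FOXM1, a transcription factor of the G2/M genes, had 9.26 and 9.05 in the clone, 9.79 and 9.97 at 1 μM, 9.79 and 9.88 at 10 μM, and 9.93 and 8.82 in MCF-10F. The ATRA arrays lay above both clone arrays, by 0.72 at 1 μM (adjusted p = 0.353) and 0.67 at 10 μM (adjusted p = 0.309).

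**Figure D4:**
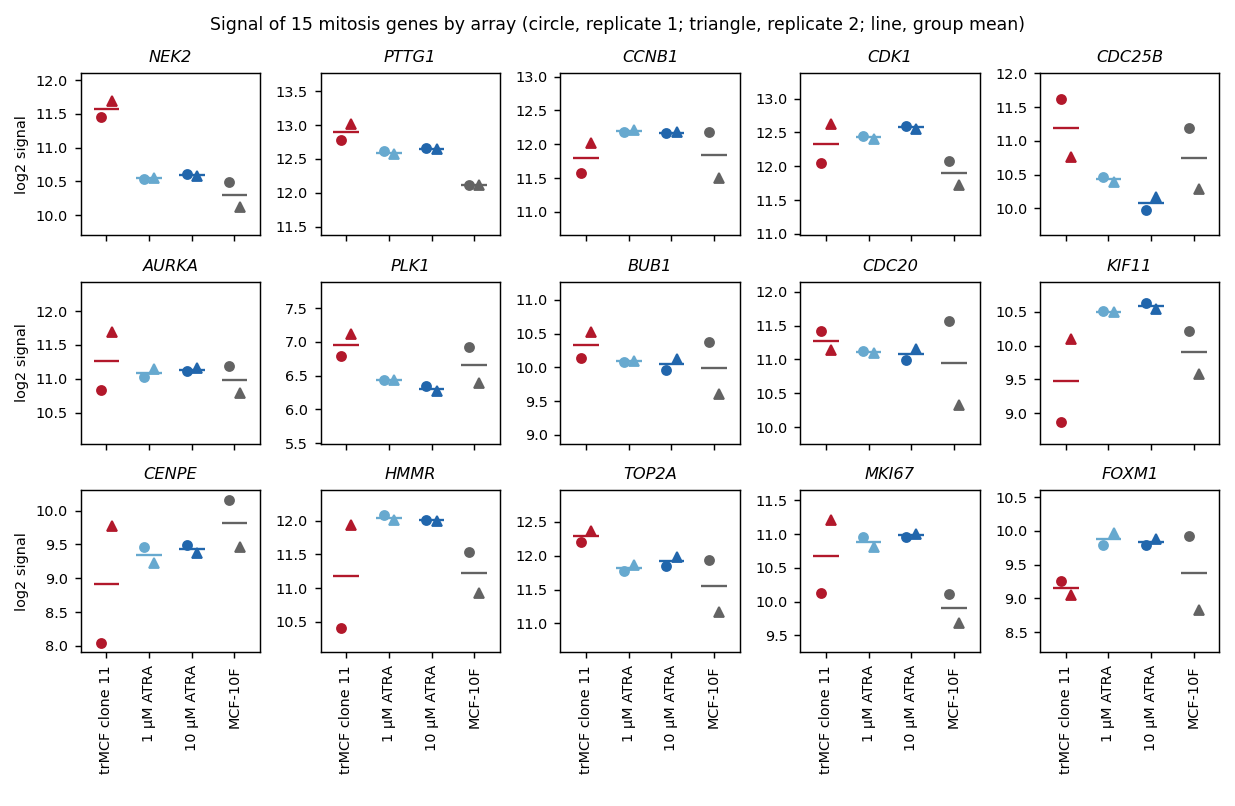
Log2 signal (y axis, the same span in every panel) of 15 genes in trMCF clone 11, 1 μM ATRA, 10 μM ATRA and MCF-10F, with replicate 1 as a circle, replicate 2 as a triangle and the group mean as a line. NEK2 lies at 11.45 and 11.69 in the clone and at 10.54 to 10.61 with ATRA, while the clone arrays of CENPE, HMMR, KIF11 and MKI67 lie over 1 log2 unit apart.

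The direction of many differences depended on which untreated clone array was used. Replicate 1 alone differed from the MCF-10F mean by a median of -0.003, with 20 genes higher and 20 lower, while replicate 2 alone differed by 0.53, with 36 higher and 4 lower. The 1 μM mean minus replicate 1 had a median of 0.33, with 26 genes higher and 14 lower, and minus replicate 2 a median of -0.29, with 10 higher and 30 lower. At 10 μM the same medians were 0.38 (27 higher, 13 lower) and -0.23 (10 higher, 30 lower). Of all genes, 59.7% were higher on replicate 1 and 50.1% on replicate 2 than in the MCF-10F mean. The 1 μM mean was higher than replicate 1 for 39.7% of all genes and than replicate 2 for 49.4%, and the 10 μM mean for 42.6% and 56.0%. The sign was opposite between the replicates for 16 genes of the set at 1 μM, 17 at 10 μM and 16 for the clone against MCF-10F. NEK2 kept its sign and most of its size, at 1.15 and 1.38 for the replicates minus the MCF-10F mean, -0.91 and -1.14 for 1 μM minus each, and -0.86 and -1.09 for 10 μM minus each. KIF11 was 1.63 higher at 1 μM than replicate 1 and 0.40 higher than replicate 2, HMMR 1.63 and 0.11, and KIF14 1.09 higher and -0.59. With replicate 2 left out of the fit, so that 1 clone array remained and was assumed to vary like the other groups, 3 genes were called in the clone against MCF-10F (NEK2 and PTTG1 higher, CENPE lower) and 4 at 1 μM (HMMR, KIF11 and NDC80 higher, NEK2 lower). These were 7.5% and 10% of the set, against 17.9% and 15.1% of all genes called in the same fits. At 10 μM 9 were called, with CENPE, ECT2, HMMR, KIF11, KIF14, MKI67 and NDC80 higher and CDC25B and NEK2 lower, 22.5% of the set against 20.3% of all genes. With replicate 1 left out instead, NEK2 was called in the clone (adjusted p = 0.0457) and at 10 μM (adjusted p = 0.025) and no gene was called at 1 μM, against 3.02%, 7.45% and 1.59% of all genes in the clone, at 10 μM and at 1 μM.

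**Figure D5:**
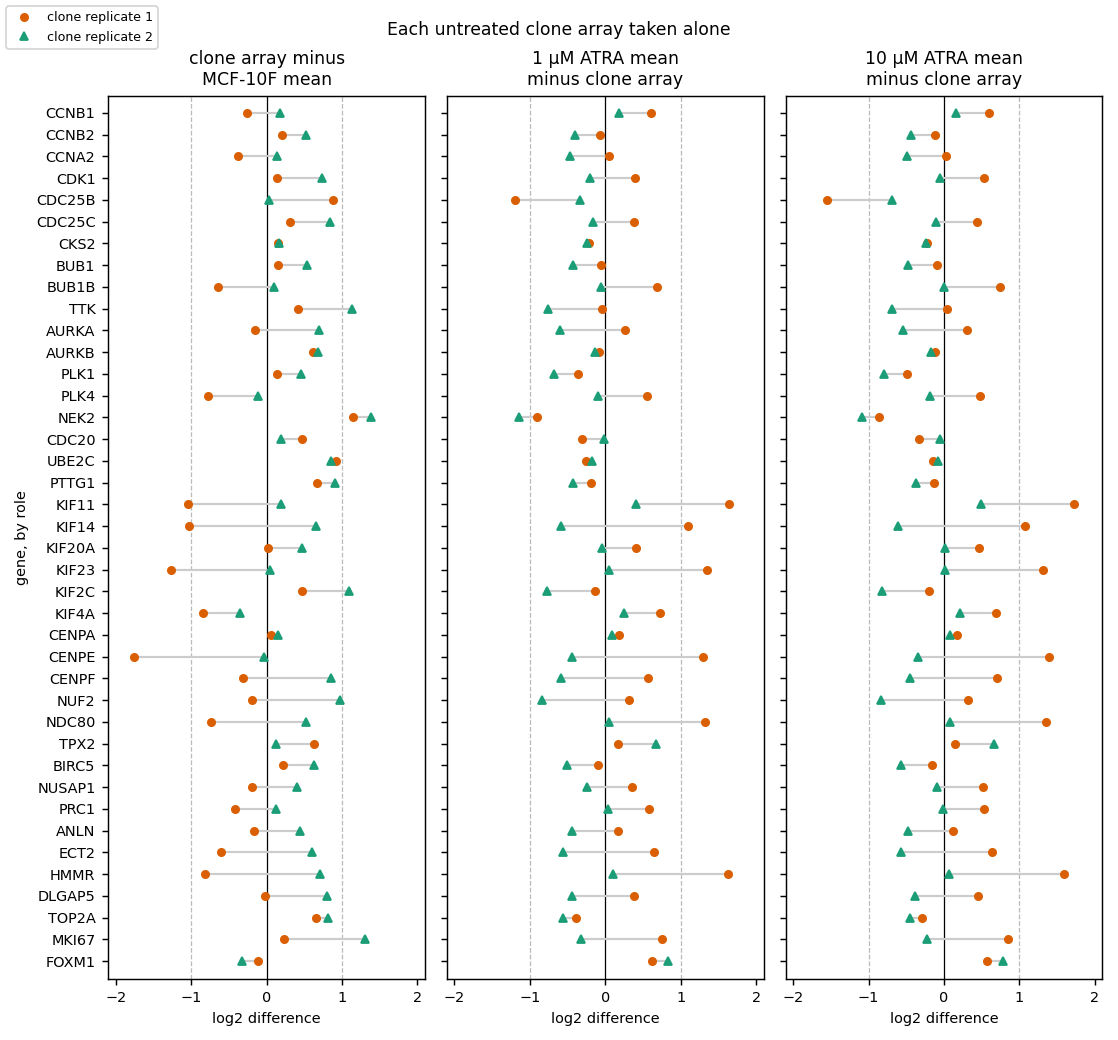
Log2 difference (x axis) of each gene (rows, by role) when trMCF clone 11 replicate 1 (circles) or replicate 2 (triangles) is used alone, for the clone array minus the MCF-10F mean and for the 1 μM and 10 μM ATRA means minus the clone array. The symbols lie on opposite sides of 0 for 16, 16 and 17 genes, and NEK2 lies on the same side with both.

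Against MCF-10F, the ATRA-treated clone had positive differences in 32 of 40 genes at each dose, against 50.6% of all genes at 1 μM and 57.8% at 10 μM. The set had a median of 0.20 at 1 μM and 0.25 at 10 μM (all genes, 0.0035 and 0.046), and no gene was called. These medians of the set were 0.54 and 0.56 without MCF-10F replicate 1 and -0.10 and -0.075 without MCF-10F replicate 2. The background was 0.612% of all genes at 1 μM and 2.56% at 10 μM. Without adjustment, 2 genes at 1 μM (MKI67 and PTTG1) and 5 at 10 μM (CDK1, CDC25C, UBE2C, MKI67 and PTTG1) had a p under 0.05, 5% and 12.5% of the set against 12.5% and 16.5% of all genes. MKI67 differed by 0.98 at 1 μM (adjusted p = 0.434) and 1.08 at 10 μM (adjusted p = 0.194), and PTTG1 by 0.48 (adjusted p = 0.341) and 0.53 (adjusted p = 0.127). The ATRA arrays lay above both MCF-10F arrays for 12 genes at 1 μM and 13 at 10 μM (30% and 32.5%, against 26.1% and 29.6% of all genes) and below both for CCNA2 and CENPE at 1 μM and CCNA2, CDC25B, PLK1 and PLK4 at 10 μM (5% and 10%, against 24.2% and 21% of all genes). By 2-fold with an unadjusted p, MKI67 was higher at 10 μM (against 1.18% of all genes), none was lower there (3.32%), and none was higher (1.15%) or lower (2.57%) at 1 μM. The interval lay within 2-fold for 16 genes at 1 μM and 22 at 10 μM, against 75.9% and 78.7% of all genes. Without MCF-10F replicate 1, where the median of the set at 10 μM was 0.56, AURKB, TPX2 and UBE2C differed by 1.11, 1.61 and 1.29. The untreated clone arrays enter these comparisons only through the shared spread. Leaving either out therefore could not move the 10 μM differences of MKI67 (1.08) and PTTG1 (0.53).

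Between the doses, compared on the 4 ATRA arrays alone, the mitosis genes were close. No gene of the set was called at 10 μM against 1 μM, nor any of all genes (0%). The differences ran from -0.36 to 0.16, with a median of -0.011, and the 95% interval lay within 2-fold for all 40 genes, against 98.9% of all genes. CDC25B was the furthest, at -0.36 (SE 0.12, unadjusted p = 0.0212 in the limma fit, adjusted p = 0.725). The arrays of the doses did not overlap for 9 genes that were higher and 5 that were lower at 10 μM, CDC25B among the 5 (22.5% and 12.5%, against 21.3% and 17.5% of all genes). CDC25B was the sole member with an unadjusted p under 0.05, against 6.67% of all genes.

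The 40 genes had 77 probe sets, and 21 genes had several. For MKI67 they disagreed. Its brightest probe set and the next differed by 0.77 and 0.37 between the clone and MCF-10F, and its 2 dimmer ones by -0.97 and -1.27. The brighter of these dim probe sets had log2 signals of 7.12 and 7.84 in the clone, 8.99 and 9.22 at 1 μM, 9.20 and 9.18 at 10 μM, and 8.92 and 7.99 in MCF-10F. It was lower on both clone arrays than on any other and rose at 10 μM against the clone by 1.71 (SE 0.34, adjusted p = 0.0324), the only call over the 77 probe sets outside NEK2 in the comparisons made. The MKI67 direction in the clone therefore turns with the probe set. At 10 μM against MCF-10F only the brightest was past 2-fold, while the others were higher by less. The next brightest had log2 signals of 10.63 and 10.71 at 10 μM and 10.28 and 9.83 in MCF-10F. Probe sets of TOP2A, AURKB and BIRC5 also lay over 1 log2 unit apart in some comparison, without a call.

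Other lists of genes of division and its control were read in the same fits. There 1.88% of all genes rose and 2.64% fell in the clone, 0.971% and 0.925% at 1 μM, and 3.94% and 3.89% at 10 μM. The median difference of all genes was 0.062 in the clone, -0.065 at 1 μM and -0.014 at 10 μM. Of 35 other G2/M genes, TROAP rose in the clone (0.93, adjusted p = 0.0478) and WEE1, the kinase that holds CDK1 inactive, fell at 10 μM by 0.85 (adjusted p = 0.0381), with none called at 1 μM. Of 27 further kinetochore and CENP genes none was called in the clone, SPC24 rose at 1 μM (1.39, adjusted p = 0.0414) and SPC24, CENPM and CENPW rose at 10 μM, where the median difference was 1.01. Of 17 condensin and cohesin genes SMC1A rose and STAG2 fell at 10 μM, and of 14 subunits and partners of the anaphase-promoting complex none was called. Of 16 MuvB, MYBL2 and pocket protein genes, RBL2 rose in the clone (1.54, adjusted p = 0.0427), and at 10 μM MYBL2, RBL1 and TFDP1 rose and TFDP2 fell. Among 30 replication genes, which act in S phase, CDT1 rose and FEN1 and UHRF1 fell in the clone, with a median of -0.91. UHRF1 rose at 1 μM and 14 genes rose at 10 μM (where 0.971% and 3.94% of all genes rose), with a median of 1.47 at each dose. By 2-fold with an unadjusted p under 0.05, 20 of the 30 were higher at each dose than in the clone. The background was 4.87% of all genes at 1 μM and 4.66% at 10 μM. In the clone 13 of the 30 were lower and 1 higher than in MCF-10F by this rule, against 5.96% and 3.24% of all genes. Against MCF-10F the median of these 30 genes was 0.36 at 1 μM and 0.33 at 10 μM. Among 21 quiescence and growth arrest genes, 5 rose in the clone, and 4 fell at 1 μM and 9 at 10 μM (where 1.88% of all genes rose, and 0.925% and 3.89% fell), with medians of 0.68, -0.98 and -1.02. In the clone all 30 replication genes were higher on replicate 2, with a median of -0.83 (replicate 1 minus replicate 2), and so were 29 of the 35 other G2/M genes, while in MCF-10F 29 of 30 and 34 of 35 were higher on replicate 1. Of the growth arrest genes, 7 of 21 were higher on replicate 2 in the clone and 18 of 21 in MCF-10F. Against MCF-10F, SPC24, CENPN and CDT1 rose at 10 μM, and ZFP36L2, of the growth arrest list, fell at both doses, with no other call. In these comparisons 0.759% of all genes rose at 10 μM, and 0.47% fell at 1 μM and 1.81% at 10 μM. No list member was called between the doses.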

How the data were processed

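The authors scanned 1 Affymetrix U133 Plus 2.0 array for each sample and deposited 1 intensity for each probe set on a linear scale. The study's methods mention global scaling in MAS 5.0 as well as Iterative Plier, without saying which one gave these intensities. Control probe sets (62 of 54675) were left out and log2 was taken of the other 54613 with no further scaling. Probe sets with 1 gene symbol in the platform annotation (41091, with 1801 naming several genes and 11721 none) gave 19775 genes, each by its brightest probe set. Comparisons used limma 3.58.1 in R 4.3.3 with Benjamini-Hochberg adjustment over all probe sets (adjusted p under 0.05). One fit held the 6 arrays without 10 μM ATRA, comparisons with 10 μM used all 8 arrays, and the doses were compared on their 4 arrays. The number of arrays, 2 a group, limits the precision. The fits were run on simulated arrays whose groups had the same spread, so that run does not cover the unequal spread seen here.

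The members and lists were chosen with earlier results of these data known. Array values are given for leading genes of each role, for genes called, for the 5 largest and 3 smallest absolute differences in the comparisons with MCF-10F and with each dose, and for the 3 genes whose clone arrays lay farthest apart (CENPE, KIF14 and HMMR). Genes named for unadjusted p-values, probe sets or arrays left out were chosen after their values were seen. Members of other lists are named as the up to 3 with the smallest p in a comparison, and RBL1 because it was called. Alternatives changed the normalization, floor, filter, prior, threshold, probe set, block and arrays.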

Additional observations from a re-analysis of the deposited data

How the results depend on the processing

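The count of mitosis genes called was small in each comparison, and settings other than leaving out an array moved it by at most 1 gene. The share of all genes called is given above for the study's threshold and for clone arrays left out, and not for other settings. A count that moved in those cannot be told apart from a change over all genes. For trMCF clone 11 against MCF-10F, where 1 gene was called, a floor of 16 gave 0, a trend and robust prior 2, averaging the probe sets of each gene 2, all 8 arrays 2 and only the 4 arrays compared 0, and leaving out an array gave 0 to 3. The second gene of the prior, the averaging and the 8 arrays was PTTG1. With the replicate number as a block the count was 0, with NEK2 at an adjusted p of 0.0554, and the block changed no other count. No label says that a replicate number marks a shared culture or day. The replicate differences correlated between groups at -0.056 to 0.351 over 54613 probe sets, with 3 of 6 pairs of groups over 0.1. The ACTB ratio of 3′ to 5′ signal was, however, higher on replicate 2 in every group. These values do not establish a pairing by number. For 1 μM ATRA against the clone, where 0 were called, the study's threshold of 2-fold with an unadjusted p gave 1, all 8 arrays gave 1, and leaving out an array gave 0 to 4, the 4 being without trMCF clone 11 replicate 2. For 10 μM ATRA against the clone, where 1 was called, the floor gave 0, the study's threshold 2 (CDC25B and KIF11, with NEK2 at -0.98 short of 2-fold), only the 4 arrays compared 0, and leaving out an array 0 to 9, the 9 being without trMCF clone 11 replicate 2. For 10 μM ATRA against MCF-10F, where 0 were called, the study's threshold gave 1 (MKI67), and leaving out an array could move the count. Quantile normalization, a filter on the dimmest probe sets and leaving out _s_at and _x_at probe sets, which left 31 of the 40 genes, moved no count. In 1 μM ATRA against MCF-10F and between the doses every setting that was run kept the count at 0. Over all settings the median difference of the set ran from -0.05 to 0.55 in the clone, from -0.29 to 0.33 at 1 μM, from -0.23 to 0.38 at 10 μM, and against MCF-10F from -0.10 to 0.54 at 1 μM and from -0.075 to 0.56 at 10 μM, each by arrays left out.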
